A study of Mus musculus with 12 samples.

Results

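The loci described here are stretches of the mouse genome that gave spliced, polyadenylated transcripts in embryonic stem cells or embryoid bodies, yet lie far from every transcript of the annotation that the deposited models were compared with. A locus was taken when all of its merged transcripts carry the class code for unknown intergenic (u), when at least 1 transcript has 2 or more exons, and when its span lies more than 10 kb from every locus holding a transcript that matches a known one (class code =). This rule uses no expression value, and it gave 1601 of the 40039 merged loci. For comparison, 1333 spliced intergenic loci lie within 10 kb of a known locus, 9831 intergenic loci have a single exon, and 25702 loci hold a known transcript.

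The study compared 4 groups of 3 libraries, 12 in all: wild-type (WT) and Notch1-/- stem cells of strain C57BL/6J, each taken undifferentiated (d0) and 6 days after differentiation was induced (d6). Undifferentiated cells of both genotypes were kept with 1000 U/ml of LIF, either on layers of mouse embryonic fibroblasts or on gelatin, and the labels do not say which library had which. Heart-directed differentiation was started by aggregating 1000 cells per hanging drop into embryoid bodies, which are balls of cells in which early embryonic tissues form. The series asks which coding and noncoding transcripts are present in these cells with and without Notch1, a receptor through which neighbouring cells signal. The labels do not say how many clones the Notch1-/- cells represent or how the allele was made, so a difference between genotypes and a difference between 2 cell lines cannot be told apart.

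Most spliced transcripts that arise between genes are long noncoding RNAs: they are made by RNA polymerase II, capped, spliced and polyadenylated like messenger RNA, but hold no long conserved reading frame. Many are present in a single tissue or developmental stage and at low level, which is why annotations made from other tissues miss them. In stem cells some of them are known to be switched off when pluripotency is lost, while others mark the tissues that form next. A locus of this kind can also be an unjoined piece of a long coding gene, a transcribed pseudogene or the far end of a neighbouring transcript.

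A later annotation shows what some of these loci are. Of the 736 loci with 3 or more exons in a transcript, 112 (7.0% of all 1601) shared 2 consecutive intron lengths and the exact length of the exon between them with exactly 1 gene of GENCODE M21 (assembly GRCm38) on the same chromosome. A control search on 1 other chromosome per locus gave 0 matches for these loci and 3 for loci holding a known transcript. It did not cover the other chromosomes or altered copies on the same chromosome. The 112 loci were linked to 105 genes, since 12 loci share 5 genes: Dnah7a and Ak9 were each linked to 3 loci, and Fer1l6, Gm28710 and Gm35330 to 2 each. Of the linked loci, 59 met a gene classed as lincRNA, 31 a protein-coding gene, 8 a processed transcript and the remainder pseudogenes. All gene names of these loci rest on this match of structure and not on identifiers in the files.

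The exons that made the link are shown for 6 loci on which the results below turn, since they are the piece of sequence that ties a locus without a name to a known RNA. Sequences are those of the GENCODE M21 transcripts (GRCm38), 5′ to 3′. Capitals mark the internal exon whose length and flanking introns were matched, and the 20 lower-case bases on each side belong to the neighbouring exons of the spliced RNA. Exon positions are those of the deposited models, in mm9.
Rubie: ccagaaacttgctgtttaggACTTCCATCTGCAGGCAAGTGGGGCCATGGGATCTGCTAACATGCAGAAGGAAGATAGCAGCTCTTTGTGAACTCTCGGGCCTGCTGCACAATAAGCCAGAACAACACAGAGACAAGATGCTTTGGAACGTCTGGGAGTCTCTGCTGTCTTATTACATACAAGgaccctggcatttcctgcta
Gm35940: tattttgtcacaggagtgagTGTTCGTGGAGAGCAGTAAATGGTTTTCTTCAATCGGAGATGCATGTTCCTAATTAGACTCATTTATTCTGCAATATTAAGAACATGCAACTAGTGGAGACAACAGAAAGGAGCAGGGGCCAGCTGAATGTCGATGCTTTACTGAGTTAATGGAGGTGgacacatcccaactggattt
Gm32885: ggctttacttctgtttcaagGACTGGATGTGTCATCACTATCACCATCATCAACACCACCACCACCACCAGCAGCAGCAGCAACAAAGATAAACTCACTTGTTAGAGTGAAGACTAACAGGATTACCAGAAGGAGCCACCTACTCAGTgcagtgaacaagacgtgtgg
Gm20750: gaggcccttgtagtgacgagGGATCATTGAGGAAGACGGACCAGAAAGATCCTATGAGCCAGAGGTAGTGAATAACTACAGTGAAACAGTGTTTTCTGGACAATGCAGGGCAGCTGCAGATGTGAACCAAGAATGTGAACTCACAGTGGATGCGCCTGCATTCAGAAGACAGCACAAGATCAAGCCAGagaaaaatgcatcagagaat
AC122818.3: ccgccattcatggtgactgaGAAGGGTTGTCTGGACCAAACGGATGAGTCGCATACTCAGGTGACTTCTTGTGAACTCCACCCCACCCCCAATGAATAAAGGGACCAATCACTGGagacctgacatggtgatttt
Gm39458: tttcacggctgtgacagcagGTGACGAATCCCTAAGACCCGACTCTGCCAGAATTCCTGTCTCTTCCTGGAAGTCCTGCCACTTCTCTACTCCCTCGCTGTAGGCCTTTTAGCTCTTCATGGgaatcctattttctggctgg

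Rubie (chr14:47190762-47190924, minus strand) contributed exon 2 of 5, 163 bases long. Gm35940 (chr9:41628343-41628500, plus) contributed exon 2 of 5, 158 bases. Gm32885 (chr15:96992386-96992513, minus) contributed exon 3 of 4, 128 bases. The exon of Gm20750 (chr3:52714233-52714400, minus) was exon 4 of 5 with 168 bases, that of AC122818.3 (chr17:87871037-87871131, minus) exon 3 of 4 with 95 bases, and that of Gm39458 (chr9:120589567-120589668, plus) exon 4 of 5 with 102 bases. The longest stretch from a start codon to a stop codon was 139 codons in the 1137 bases of Rubie and 100 codons in the 4797 bases of Gm35940. It was 40 codons in the 510 bases of Gm32885, 79 in the 3515 bases of Gm20750, 34 in the 549 bases of AC122818.3 and 51 in the 935 bases of Gm39458. By contrast, the transcript of the protein-coding gene Ankrd31 had 1765 codons in 5859 bases.

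The deposited table held 100637179 to 134662426 counts per library. Levels below are read counts scaled to TMM-normalised library size (CPM), and fold changes are log2 values from edgeR's quasi-likelihood test. Their standard error (SE) is approximate: the size of the log2 change was divided by the square root of the test's F value. Where a group is near 0 counts, both depend on the prior count. A locus was called when its Benjamini-Hochberg adjusted p over all 23991 tested loci was under 0.05. The series design calls the replicates biological but does not say that they were separate cultures, so the p-values take in only the spread among these libraries, part of which can be technical. Notch1 itself gave 24.7 to 61.6 CPM in the 6 WT libraries and 3.8 to 6.8 CPM in the 6 Notch1-/- libraries, so the level followed the labels without reaching 0. Of 5 linked pluripotency genes, Zfp42, Esrrb and Klf4 fell from d0 to d6 in both genotypes. Nanog and Tdgf1, at or below 2.38 CPM in every library, fell in WT (edgeR adjusted p = 0.0294 and 0.0112). In Notch1-/-, Nanog was not called (-0.21, edgeR adjusted p = 0.666) and Tdgf1 rose (1.14, edgeR adjusted p = 0.0356). Fibroblast markers were high at d0: the mean log2(CPM + 0.5) of 14 linked genes was 7.07, 6.38 and 7.95 in WT replicates 1 to 3 and 5.57, 6.86 and 7.44 in Notch1-/-, against 4.82 to 4.85 and 3.11 to 3.41 at d6. Of the 14, 8 fell in WT and 12 in Notch1-/-, and none was at 0. In each genotype 1 rose: Postn in WT (1.45, edgeR adjusted p = 0.0368) and Fn1 in Notch1-/- (0.71, edgeR adjusted p = 0.0332). At d6 the endothelial list (Cdh5, Pecam1, Tek, Tie1, Fli1) had means of 5.01 to 5.52 in WT and 1.67 to 2.16 in Notch1-/-. The visceral endoderm list (5 of 6 genes linked) had 3.73 to 4.16 in WT d6 and 0.57 to 1.2 in Notch1-/- d6, with 4 of 5 genes lower in Notch1-/-. The list of early mesoderm and heart genes had 3.76 to 4.19 in WT d6 and 2.86, 2.79 and 1.55 in Notch1-/- d6, where replicate 3 stood apart.

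The loci were short, simple and faint beside loci holding a known transcript. Their longest transcript had a median of 2 exons, 5 or more in 164 loci and at most 26. It had exactly 2 in 865 loci (54.0%), against 61.1% of the spliced intergenic loci near genes. A single transcript was modelled for 734 loci (45.8%). The median exon length per locus was 2532 bases (161 to 59119) within a median span of 6534 bases. In 123 loci (7.68%) the exons of all transcripts together cover the whole span, because a transcript without the intron was also modelled there. Among them are XLOC_000007, XLOC_009067, XLOC_034998 and XLOC_037140, described below. Reads from anywhere in their span can count toward them, so their levels are not those of spliced RNA alone. The 2 strands were about equally used, 820 plus and 781 minus. The nearest known locus lay a median of 41557 bases away, with quartiles of 21369 and 82452, and 28 loci were more than 500 kb from any. Chromosome 2 held the most, 122, whereas their share of all loci was lowest on chromosome 7 (1.94%) and highest on chromosome 12 (5.77%). Some loci are pieces of 1 unit or lie across from each other, as 237 overlapped the span of another. Without a stated strand setting for the counting, overlapping loci on the 2 strands cannot be separated.

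Per length, the median of the mean FPKM over all 12 libraries was 0.0617 for the 1601 loci, against 0.071 for the spliced intergenic loci near genes, 0.0286 for single-exon loci and 0.356 for loci holding a known transcript. Over all 40039 merged loci it was 0.0663. The filter for expressed loci passed 1239 of the 1601 (77.4%). The other 362 were not tested. Of these, 55 had 0 counts in every library, and 13 of the 55 had a mean FPKM of 1 or more, so their 0 counts do not show absence. A locus passes this filter through its highest group, so the counts below describe the 1239 tested loci and not all 1601. In 468 of them a group reached a mean of 1 CPM, and 87 had a mean of 10 CPM or more over the 12 libraries.

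Over 6 days of differentiation of WT cells, more loci fell than rose. Of the 1239 tested, 523 (42.2%) were lower at d6 and 131 (10.6%) were higher, where 24.7% and 18.4% of all tested loci were called lower and higher. The median log2 change was -1.16, against -0.12 over all tested loci. On the deposited FPKM it was smaller, -0.34 on log2(FPKM + 0.1) and -0.06 on log2(FPKM + 1), against -0.08 and -0.02 over all tested loci. Shares called lower were 31.9% for spliced intergenic loci near genes, 22.9% for single-exon intergenic loci and 23.1% for loci holding a known transcript. In these bulk libraries, fewer cells of a type and less RNA per cell cannot be told apart. Of the 523 loci that fell, 286 (54.7%) had their highest d0 value in replicate 3, the WT library with the highest fibroblast mean, 158 in replicate 2 and 79 in replicate 1. When replicate 3 was left out, 430 fell, and calls over all tested loci in both directions went from 10342 to 9151. The order of the other 2 libraries was the reverse of that of their fibroblast means, which were 7.07 in replicate 1 and 6.38 in replicate 2. These shares were not taken over all tested loci that fell, so they cannot be read as particular to the loci described here. The part of feeder cells in these falls was not tested.

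**Figure D1:**
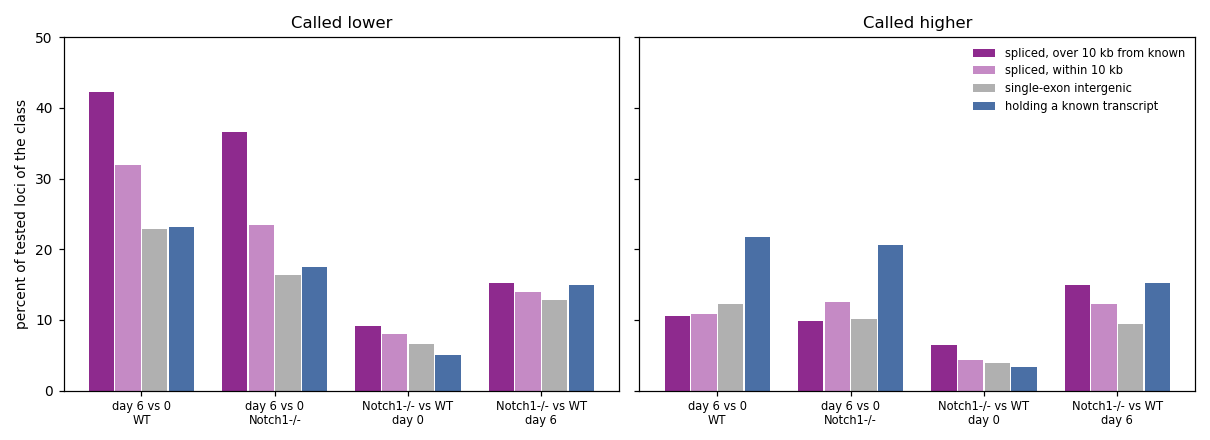
Percent of tested loci called lower (left) or higher (right) by edgeR's quasi-likelihood test in each comparison, for 4 classes of loci. In the comparisons of d6 with d0, the bars of the 1239 spliced loci over 10 kb from known ones reach 42.2% and 36.6% lower, and the bars for loci called higher stand at 10.6% and 9.85%.

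The loci that rose most in WT cells were close to silent at d0. Rubie, named for lying upstream of Bmp4 and for its expression in the inner ear, is a 5-exon locus at chr14:47187007-47195914. It gave 0.0512, 0.017 and 0.0338 CPM in the WT d0 libraries and 19.4, 17.9 and 12.5 CPM at d6, with no overlap, and it rose by a log2 change of 8.86 (SE 0.95, edgeR quasi-likelihood adjusted p = 2.23e-05). XLOC_000007 (chr1:5286117-5303987, plus strand, 126714 bases from the nearest known locus) gave 0.0439, 0.162 and 0.0759 CPM at d0. At d6 its 3 WT libraries were nearly equal, at 23.7, 24.3 and 24.0 CPM, and the log2 change was 8.0 (SE 0.56, edgeR adjusted p = 1.99e-06). XLOC_008841 (chr13:70788696-70794894) lies 11731 bases from Ice1, which encodes a subunit of the little elongation complex. This locus gave 0.0146, 0 and 0.0422 CPM at d0 and 4.26, 3.57 and 4.02 CPM at d6. All d6 libraries stood above all d0 libraries, with a log2 change of 7.63 (SE 0.60, edgeR adjusted p = 3.3e-06), whereas Ice1 rose by 0.40 (edgeR adjusted p = 0.0331).

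A pair of loci was at or near 0 counts in WT d0. XLOC_000016 (chr1:9427261-9428915, 3 exons) had 0 counts in all 3 d0 libraries and 0.927, 1.27 and 0.821 CPM at d6, which is at least 125-fold higher when 3 counts over the d0 group are taken as the floor. XLOC_010626 (chr14:56046622-56055593) held 2 counts over the 3 d0 libraries and gave 3.77, 3.8 and 2.58 CPM at d6, a ratio of 630 with a 95% counting interval of 174 to 5210. Such intervals and floors cover counting error only. The 3 loci most like XLOC_000016 over the 12 libraries were XLOC_026776, XLOC_016963 and XLOC_010626, with Pearson r of 0.998, 0.997 and 0.996 on log2 CPM. These r describe 12 libraries that share groups and depth. XLOC_026776, linked to the lincRNA 4930431F12Rik, was seen in no group but WT d6, at 0.257, 0.381 and 0.256 CPM.

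The deepest falls in WT cells ended near 0 CPM. The locus linked to Gm35940 (chr9:41624151-41644655) gave 0.732, 0.937 and 1.78 CPM at d0 and 0, 0.00846 and 0.0427 CPM at d6, a log2 change of -6.00 (SE 0.93, edgeR adjusted p = 0.000315). All d0 libraries stood far above all d6 libraries. XLOC_026810 (chr5:64782770-64788855, 3 exons, 39976 bases from Tbc1d1) gave 2.55, 3.26 and 3.47 CPM at d0 and 0.174, 0.144 and 0.094 CPM at d6. It fell by 4.48 on the log2 scale (SE 0.39, edgeR adjusted p = 5.29e-06) with all d0 values above all d6 values, while Tbc1d1, a regulator of glucose transport, had a log2 change of -0.12 (edgeR adjusted p = 0.46). XLOC_000445 (chr1:121336347-121342650) gave 2.80, 1.59 and 4.93 CPM at d0 and 0.182, 0.0931 and 0.094 CPM at d6, and its nearest known locus, 17521 bases away, had a log2 change of -5.68 (edgeR adjusted p = 4.67e-05). XLOC_030078 (chr6:52052422-52069949) had 6.53 to 13.4 CPM at d0 and 0.124 to 0.188 CPM at d6, but shares 48.4% of its exon length with another locus, so its counts are uncertain.

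In Notch1-/- cells the direction was the same. Of the 1239 tested loci, 454 (36.6%) fell and 122 (9.85%) rose from d0 to d6, where 18.7% and 17.2% of all tested loci were lower and higher. The median log2 change was -0.74, against -0.02 over all tested loci. It was -0.23 on log2(FPKM + 0.1) and -0.04 on log2(FPKM + 1), against 0.01 and 0.0 over all tested loci. Replicate 3, which had the highest fibroblast mean of the Notch1-/- d0 libraries, held the highest d0 value of 261 of the 454 loci that fell (57.5%). Without this library 351 fell, and calls over all tested loci in both directions went from 8613 to 6828. Replicates 1 and 2, with fibroblast means of 5.57 and 6.86, held the highest d0 value of 104 and 89 loci, again in the reverse order. Here too the shares were not taken over all tested loci that fell, and the part of feeder cells was not tested.

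The locus linked to Gm32885 (chr15:96987214-96998046, 5 exons) was among the most abundant that changed. In Notch1-/- it gave 20, 1.00 and 21.4 CPM at d0 and 0.126, 0.172 and 0.268 CPM at d6, a log2 change of -6.20 (SE 0.87, edgeR adjusted p = 0.000221). Replicate 2 was the lowest d0 library and still above every d6 library. In WT the locus gave 67.6, 82.9 and 91.3 CPM at d0 and 16.1, 16.9 and 19.7 CPM at d6. The groups do not overlap there either, and the log2 change was -2.20 (SE 0.69, edgeR adjusted p = 0.0212), which lost its call without WT d0 replicate 3 or without any 1 of the WT d6 replicates (edgeR adjusted p of 0.0518 to 0.0691). XLOC_017114, a 6-exon locus of 185439 bases on chromosome 18, had 0.248, 2.12 and 2.11 CPM at d0 in Notch1-/- and 0 counts in all 6 d6 libraries of both genotypes. Its d0 level was at least 186-fold above d6 in Notch1-/- and at least 108-fold in WT, where d0 gave 0.498, 1.19 and 1.04 CPM. The Gm35940 locus was again low at d6, with 0.288, 0.211 and 1.16 CPM at d0 and 0.009, 0 and 0.00745 CPM at d6, a ratio of 100 on 2 d6 counts (95% counting interval 27.4 to 836). This call was lost on the deposited FPKM (limma adjusted p = 0.0537).

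Rubie rose in Notch1-/- as well, from 0.238, 0.00879 and 0.0501 CPM to 10.5, 8.63 and 1.91 CPM. No values overlapped, with a log2 change of 6.16 (SE 0.83, edgeR adjusted p = 0.00017), and replicate 3 of d6 was the lowest, as in the early mesoderm list. Its difference between genotypes at d6 was -1.24 (SE 0.63, edgeR adjusted p = 0.162) and missed the threshold. XLOC_026860 (chr5:75344895-75386588, 6 exons, 10535 bases from Chic2) gave 0.268, 0.211 and 0.241 CPM at d0 and 8.42, 9.23 and 2.70 CPM at d6. All d6 libraries were above all of d0, and the log2 change was 4.82 (SE 0.57, edgeR adjusted p = 6.83e-05). XLOC_015277 (chr17:69186377-69192480) reached similar changes in both genotypes, 4.39 (SE 0.53) in WT and 4.59 (SE 0.58) in Notch1-/-, from at most 0.128 CPM at d0 to 2.12 to 2.68 CPM in WT and 0.945 to 1.12 CPM in Notch1-/- at d6. XLOC_036611, 18748 bases from Tle3, a corepressor of the Groucho family, rose in both (3.49 and 4.54), and Tle3 rose with it (0.95 and 1.08, edgeR adjusted p = 0.00449 and 0.00279). XLOC_011913 (chr15:45009828-45016386) held 1 count over the Notch1-/- d0 libraries and 0.900, 3.04 and 0.253 CPM at d6, a ratio of 441 with a 95% counting interval of 78.7 to 17400.

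**Figure D2:**
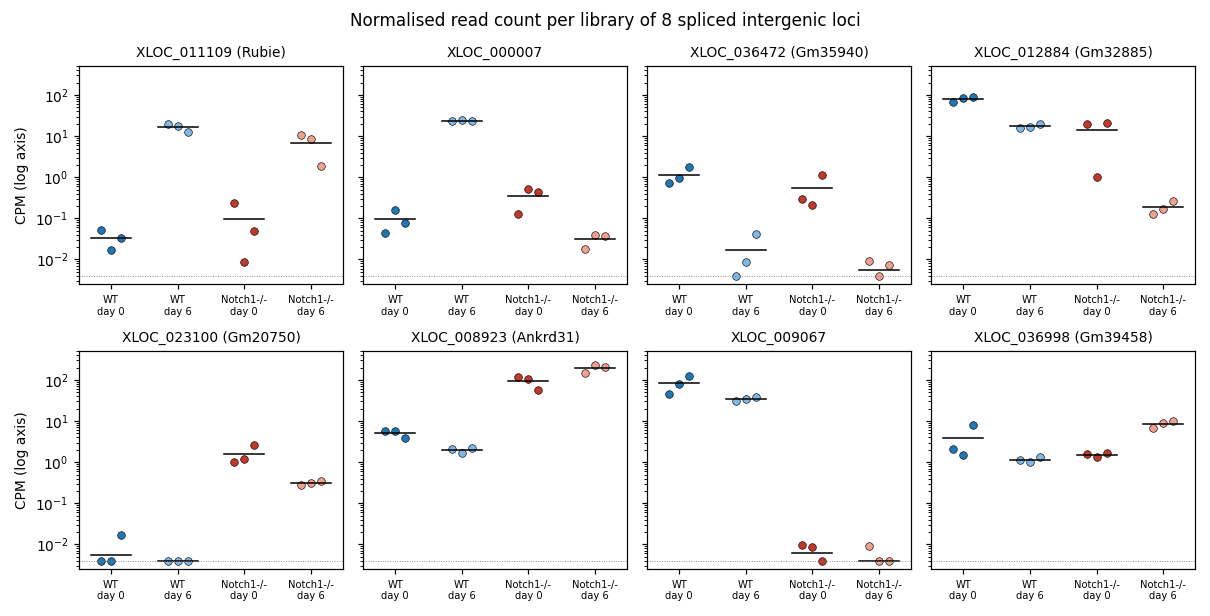
CPM on a log axis for 8 named loci, 1 panel each, with 3 points per group for the libraries and a bar for their mean. A value of 0 is drawn at 0.004 CPM, the dotted line. XLOC_000007 is near 24 CPM in WT d6 alone, and XLOC_009067 lies above 30 CPM in every WT library and at or below 0.00992 CPM in every Notch1-/- library.

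The comparisons of d6 with d0 in the 2 genotypes share no library. Of the loci that fell, 325 fell in both, which is 62.1% of those that fell in WT and 71.6% of those that fell in Notch1-/-. Over all tested loci the shares were 49.1% and 64.8%. Of those that rose, 52 rose in both (39.7% and 42.6%, against 48.9% and 52.4% over all tested loci), and 26 were called in opposite directions. Such shares depend on how often loci were called at all. Falls were more frequent among these loci than among all tested loci, and rises were less frequent. The shares therefore do not show closer or looser sharing between genotypes. The group with the highest mean was WT d0 for 35.9% of the tested loci, Notch1-/- d0 for 34.2%, WT d6 for 17.4% and Notch1-/- d6 for 12.5%, where all tested loci gave 24.9%, 25.8%, 28.6% and 20.7%.

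**Figure D3:**
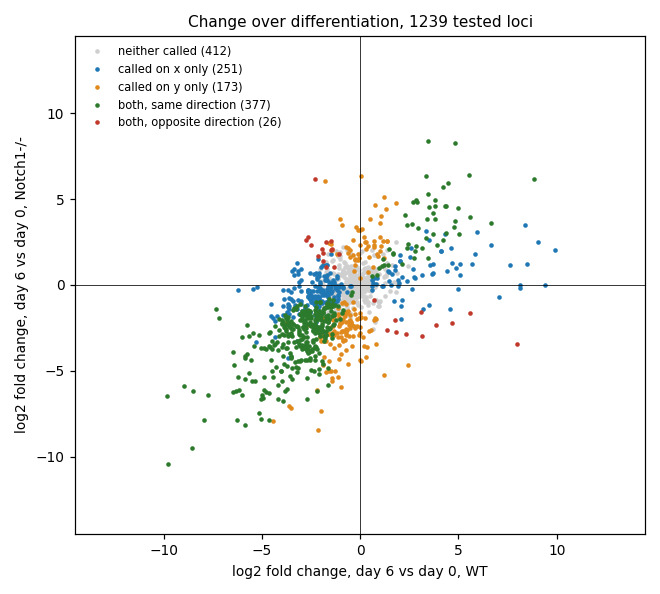
Fitted log2 fold change from d0 to d6 in WT (x) and Notch1-/- (y) for the 1239 tested loci, coloured by which comparison was called. The 377 loci called in both in the same direction lie mostly in the lower left, 325 of them, and 26 loci are called in opposite directions. For a locus with 0 counts in a group, the fitted value depends on the prior count.

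A larger share of these loci than of all tested loci fell in every band of abundance but the highest band of Notch1-/-. Below a mean of 0.1 CPM, 34.0% fell in WT and 37.4% in Notch1-/-, against 24.9% and 19.9%. Among loci with a mean of 0.1 to 1 CPM, 45.1% fell in WT and 39.0% in Notch1-/-, against 29.6% and 22.4% of all tested loci in that band. At 1 to 10 CPM the shares were 48.7% and 37.9% against 28.1% and 20.7%. At 10 CPM or more, 25.3% of the 87 loci fell in WT against 18.6%, and 12.6% fell in Notch1-/- against 14.1%. Rises were fewer than in the band as a whole at 10 CPM or more, 9.20% against 24.4% in WT. By structure, 36.8% of the loci with 2 exons fell in WT, 47.1% of those with 3 or 4 and 48.4% of those with 5 or more. By distance, the share was 35.8% at 10 to 20 kb from a known locus, 43.7% at 20 to 50 kb, 44.9% at 50 to 100 kb and 44.2% beyond.

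**Figure D4:**
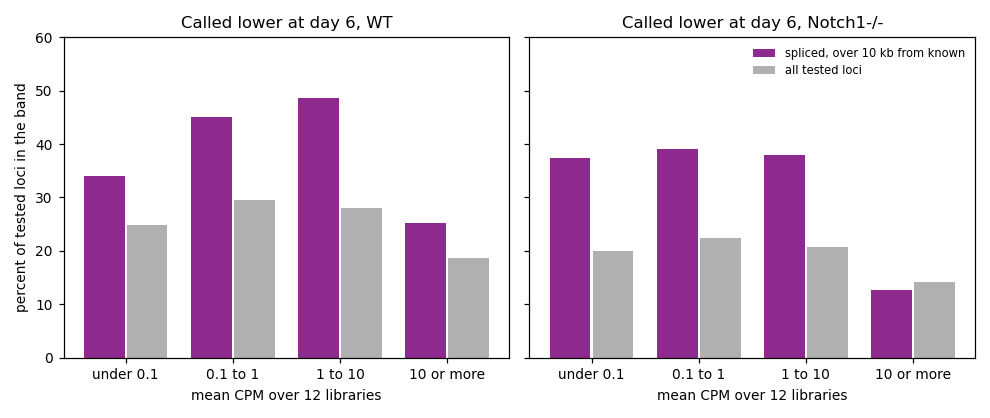
Percent of tested loci called lower at d6 in WT (left) and Notch1-/- (right), by mean CPM over 12 libraries, for the spliced loci far from genes and for all tested loci. The first bar is the taller one in every band but the highest in Notch1-/-, where it is 12.6% against 14.1%.

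Between genotypes at d0, fewer loci differed. Of the 1239 tested, 80 (6.46%) were higher and 113 (9.12%) lower in Notch1-/- than in WT, where 3.71% and 5.86% of all tested loci were. The median log2 difference was -0.15, against -0.08 over all tested loci. This fit held no term for the replicate number, and with such a term the counts were 115 higher and 145 lower. The counts of the fit without it moved with single libraries. They were 51 higher and 70 lower without WT d0 replicate 1, 148 and 214 without WT d0 replicate 2, and 134 and 170 without Notch1-/- d0 replicate 1. The lower count was 70 without WT d0 replicate 3 and 54 without Notch1-/- d0 replicate 2. Calls over all tested loci, both directions together, were 2294 in the main fit and 3335 with the term for the replicate number. Leaving out WT d0 replicate 1, 2 or 3 gave 1282, 5983 and 1545. Without Notch1-/- d0 replicate 1 or 2 they were 4172 and 1124. The loci described here made up 193 of the 2294 and 362 of the 5983. These shifts are thus not particular to them.

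The sharpest differences were of presence against near absence. XLOC_009067 (chr13:19608914-19620273, minus strand, 12677 bases from 9330199G10Rik) gave 46.1, 78.6 and 122 CPM in WT d0 and 30.3, 34.0 and 37.9 CPM in WT d6. In the 6 Notch1-/- libraries it gave 0.00992, 0.00879, 0, 0.009, 0 and 0 CPM, which is 3 counts in all. The ratio was 12700 at d0 (95% counting interval 3510 to 105000, edgeR adjusted p = 1.22e-07) and 12700 at d6 (2280 to 502000, edgeR adjusted p = 7.47e-08). XLOC_001233 (chr1:122181921-122204658, 8 exons) lies 14261 bases from Steap3, an iron reductase gene. It gave 7.87, 11.5 and 16.5 CPM in WT d0 and 0, 0.00879 and 0.0501 CPM in Notch1-/- d0. The difference was -9.20 (SE 0.70, edgeR adjusted p = 1.06e-05) and remained at d6 (-5.95), where WT gave 1.04, 1.23 and 1.94 CPM, while Steap3 was lower in Notch1-/- at d0 (-1.53) and higher at d6 (1.92). XLOC_022454 (chr3:37727180-37747628) gave 2.03, 1.54 and 3.30 CPM in WT d0 and 0.00992, 0.00879 and 0.0301 CPM in Notch1-/- d0, a difference of -7.07 (SE 0.56, edgeR adjusted p = 1.15e-05). XLOC_008608 (chr13:31754224-31783284) had 0 counts in all Notch1-/- libraries and 1.30, 1.09 and 2.21 CPM in WT d0, at least 161-fold higher, but it shares 92.5% of its exon length with another locus. XLOC_025356 (chr4:91857452-91858523) was lower by counts, at 2.24 to 4.59 CPM in WT d0 and 0.00992 to 0.241 CPM in Notch1-/- d0. The deposited FPKM of this locus did not show the same difference, with means of 7.46 and 4.02.

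Other loci were near 0 in WT d0 and present in Notch1-/-. The locus linked to Gm17177 (chr13:3081416-3122605), a transcribed pseudogene that may share reads with its parent copies, had 0 counts in WT d0 and 1.51, 3.68 and 3.94 CPM in Notch1-/- d0, at least 378-fold higher. The Gm20750 locus (chr3:52710731-52714697) gave 0, 0 and 0.0169 CPM in WT d0, 0 in all WT d6 libraries, 1.00, 1.17 and 2.63 CPM in Notch1-/- d0 and 0.279, 0.32 and 0.343 CPM in Notch1-/- d6. The ratio at d0 was 294 on 2 WT counts (95% counting interval 81.0 to 2430), and the d6 level was at least 37.2-fold higher. XLOC_037140 (chr9:24617788-24626500) lies 37175 bases from Tbx20, a transcription factor of the early heart. It gave 0.0878, 0.128 and 0.0338 CPM in WT d0 and 2.12, 4.68 and 5.19 CPM in Notch1-/- d0, with no overlap and a difference of 5.57 (SE 0.49, edgeR adjusted p = 2.89e-05). Tbx20 was also higher in Notch1-/- at d0 (2.78, edgeR adjusted p = 0.00344), but at d6 Tbx20 was lower (-3.56) while the locus differed by 1.03 (edgeR adjusted p = 0.0831). XLOC_034998 (chr8:8772118-8777021) gave 0.833, 1.05 and 2.27 CPM in Notch1-/- d0 and at most 0.039 CPM in every library of the other groups, with 3 counts in WT d0 and a ratio of 170 (95% counting interval 57.6 to 825). The loci most like Gm17177 over the 12 libraries were XLOC_026893, XLOC_027689 and XLOC_014194 (Pearson r of 0.964, 0.963 and 0.963 on log2 CPM).

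At d6, 184 of the 1239 loci (14.9%) were higher and 189 (15.3%) lower in Notch1-/-, close to the 13.7% and 14.4% of all tested loci. The median difference was 0.01 in both. The marker lists also differed between genotypes at d6. Lower in Notch1-/- were 5 of 5 endothelial genes, 4 of 5 of visceral endoderm, 4 of 6 of heart and 6 of 14 of fibroblasts. In the heart list, T was higher (2.78, edgeR adjusted p = 0.00318) and Kdr missed the threshold (-0.46, edgeR adjusted p = 0.492). Higher in Notch1-/- were also 2 fibroblast genes and 2 of 5 pluripotency genes. The part of these lists in the calls was not tested. Higher calls fell to 109 and 107 without WT d6 replicate 1 or 2. Over all tested loci, calls in both directions together fell from 6741 to 4285 and 4435 in these fits. By chromosome, lower calls ran from 1 of 53 tested loci on chromosome 11 (1.89%) to 18 of 68 on chromosome 13 (26.5%). Shares over all tested loci were not counted by chromosome, so this range cannot be read as particular to these loci.

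The locus linked to Ankrd31, a gene needed for meiotic recombination in germ cells, was abundant in Notch1-/- and not in WT. This 26-exon locus (chr13:97518226-97679844) gave 5.79, 5.62 and 3.93 CPM in WT d0, 2.15, 1.68 and 2.17 in WT d6, 115, 106 and 56.8 in Notch1-/- d0 and 149, 226 and 203 in Notch1-/- d6. Every Notch1-/- library was above every WT library on both days, and the difference was 4.18 at d0 (SE 0.29, edgeR adjusted p = 4.62e-06) and 6.59 at d6 (SE 0.32, edgeR adjusted p = 1.05e-07). The AC122818.3 locus (chr17:87862207-87892444, 15893 bases from Calm2, a calmodulin gene) gave 0.483, 0.298 and 0.835 CPM in WT d0 and 0.0745, 0.0677 and 0.128 in WT d6. In Notch1-/- it gave 7.26, 5.31 and 6.80 CPM at d0 and 10.1, 9.0 and 11.9 CPM at d6, so the genotypes did not overlap on either day, with differences of 3.58 (SE 0.36) and 6.82 (SE 0.44, edgeR adjusted p = 1.24e-06). Calm2 had a difference of 0.17 at d6 (edgeR adjusted p = 0.409). Over the 12 libraries, Ankrd31, XLOC_009396 and XLOC_009519 were the loci most like AC122818.3 (Pearson r of 0.984, 0.971 and 0.958 on log2 CPM).

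The Gm33222 locus (chr1:36057179-36068707) differed by about the same amount on both days. It gave 0.615, 0.486 and 0.810 CPM in WT d0 and 6.66, 6.56 and 6.76 in Notch1-/- d0, a difference of 3.38 (SE 0.27). At d6 it gave 0.182, 0.237 and 0.256 CPM in WT and 1.94, 2.44 and 2.61 CPM in Notch1-/-, a difference of 3.36 (SE 0.28, edgeR adjusted p = 7.44e-06), and it fell by 1.5 and 1.52 on the log2 scale from d0 to d6 in WT and Notch1-/-. XLOC_034453 (chr8:44439137-44459368) lies 46103 bases from Zfp42, the pluripotency marker also called Rex1. At d6 it gave 0.19, 0.288 and 0.376 CPM in WT and 2.05, 2.88 and 6.66 CPM in Notch1-/-, with no overlap and a difference of 3.76 (SE 0.58, edgeR adjusted p = 0.000566), whereas Zfp42 had a difference of 0.24 (edgeR adjusted p = 0.44). The Gm35818 locus (chr12:55191951-55215594) gave 0.0662 to 0.135 CPM in WT d6 and 0.792 to 1.83 CPM in Notch1-/- d6, a difference of 3.66 (SE 0.49, edgeR adjusted p = 0.000193).

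Among the loci lower in Notch1-/- at d6, XLOC_000007 stood at 0.018, 0.039 and 0.0372 CPM against about 24 CPM in WT (difference -9.51, SE 0.62, edgeR adjusted p = 1.25e-06). XLOC_022454 held 1 count in the 3 Notch1-/- d6 libraries against 3.63, 4.41 and 3.63 CPM in WT, a ratio of 1450 (95% counting interval 260 to 57400). The locus linked to the pseudogene Gm3650 on chromosome 18 gave 16.9, 18.4 and 16.5 CPM in WT d6 and 0.027, 0.039 and 0.067 CPM in Notch1-/- d6 (difference -8.55, SE 1.08, edgeR adjusted p = 0.000137). The deposited FPKM of this locus did not show a difference of that size, with means of 13.3 and 6.52, and it shares 44.1% of its exon length with another locus. Reads of a pseudogene can also be shared with its parent copy. Gm32885 differed by -6.52 at d6 (SE 0.88, edgeR adjusted p = 0.000212). Its difference at d0, -2.51 (edgeR adjusted p = 0.0405), lost its call in 8 of the 12 fits with 1 library left out (0.0507 to 0.0892).

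The 2 comparisons of genotypes share no library. Of the loci higher in Notch1-/-, 50 were so on both days, 62.5% of those at d0 and 27.2% of those at d6, where all tested loci gave 55.3% and 15%. Of those lower, 44 were so on both days (38.9% and 23.3%, against 38.7% and 15.7%). These shares also depend on how often loci were called, which at d0 was more often than over all tested loci. Only XLOC_000007, XLOC_013688, XLOC_025698, XLOC_026985 and XLOC_032974 were called in opposite directions, and the last 4 were named after their values were seen. For XLOC_000007 the d0 call (1.95, edgeR adjusted p = 0.0289) was lost without WT d0 replicate 1 or 3 or Notch1-/- d0 replicate 2 or 3 (0.076 to 0.124). XLOC_026985, for example, had group means of 0.0586 CPM in WT d0 and 0.00293 CPM in Notch1-/- d0, but 0.0112 and 0.308 CPM at d6. In 4 loci all 6 Notch1-/- libraries had 0 counts while every WT library of a day had 10 or more: XLOC_008608, XLOC_016963, XLOC_024119 and XLOC_026776. The reverse held for XLOC_000013, XLOC_011897, XLOC_021409, XLOC_026893 and XLOC_027689. Of these, XLOC_027689 lies 15906 bases from Tecrl, a reductase gene of heart muscle, which was itself higher in Notch1-/- on both days (edgeR adjusted p = 0.000714 and 0.00152). Loci with 0 counts throughout a genotype were not counted over all tested loci, so it is not known whether they are more frequent here.

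**Figure D5:**
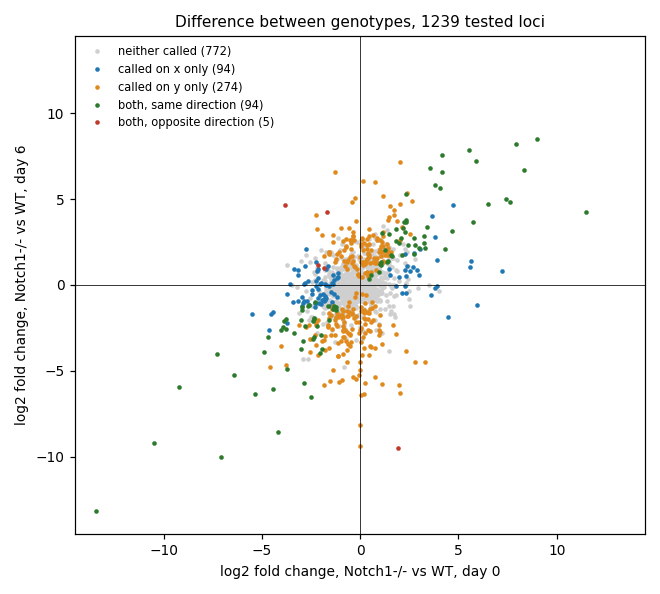
Fitted log2 difference between Notch1-/- and WT at d0 (x) and d6 (y) for the 1239 tested loci, coloured by which comparison was called. The 94 loci called on both days in the same direction lie along the diagonal to both ends, and 5 lie off the diagonal, in the opposite corners. Fitted values of loci with 0 counts in a group depend on the prior count.

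The change over differentiation itself differed between genotypes for 128 of the 1239 loci: the interaction was called higher, a change more positive in Notch1-/-, in 75 loci (6.05%) and lower in 53 (4.28%), where 6.36% and 4.92% of all tested loci were. Higher calls were 48 without WT d0 replicate 3, 40 and 35 without WT d6 replicate 1 or 2, 44 without Notch1-/- d0 replicate 2 and 47 without Notch1-/- d6 replicate 3. Lower calls were 30, 29 and 29 without WT d6 replicate 1, 2 or 3, 34 without Notch1-/- d0 replicate 3, and 35 and 31 without Notch1-/- d6 replicate 2 or 3. Over all tested loci, interaction calls in both directions fell from 2708 to between 1434 and 2081 in these fits. XLOC_000007 had the most negative interaction, -11.46 (SE 0.78, edgeR adjusted p = 2.53e-05): it rose in WT but in Notch1-/- went from 0.129, 0.519 and 0.431 CPM to the values near 0 given above. The fall in Notch1-/- (-3.46, edgeR adjusted p = 0.000681) was not seen on the deposited FPKM, where the change was 0.10 on log2(FPKM + 0.1). XLOC_031969 (chr7:90105008-90196843, 5 exons over 91836 bases) moved in the same directions, from 0.0659, 0.111 and 0.110 CPM to 2.04, 3.48 and 1.88 CPM in WT, and from 0.0496, 0.255 and 0.321 CPM to 0.072, 0.039 and 0.0223 CPM in Notch1-/- (interaction -6.92, SE 0.86, edgeR adjusted p = 0.000465). Its fall in Notch1-/- (-2.23, edgeR adjusted p = 0.0156) was lost without Notch1-/- d0 replicate 3 or d6 replicate 2 or 3 (0.0516 to 0.0644). Its nearest known locus, 84921 bases away, rose in both genotypes (3.81 and 1.72).

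In the other direction, XLOC_034602 (chr8:80537788-80628868) gave 50.8, 31.7 and 58.7 CPM in WT d0 and 11, 12.3 and 14.7 CPM in WT d6. In Notch1-/- it went up, from 4.46, 7.08 and 4.23 CPM to 10.9, 19.6 and 26.6 CPM, and neither pair of groups overlapped. The interaction was 3.75 (SE 0.47, edgeR adjusted p = 0.000463). The Gm39458 locus (chr9:120578349-120593670) gave 2.1, 1.47 and 8.21 CPM in WT d0 and 1.15, 0.99 and 1.33 CPM in WT d6. In Notch1-/- it rose from 1.54, 1.31 and 1.72 CPM to 6.74, 9.02 and 10.1 CPM, and the interaction was 4.26 (SE 0.73, edgeR adjusted p = 0.00303). Its fall in WT rests on replicate 3 of d0: the log2 change was -1.76 with it and -0.62 without it (edgeR adjusted p = 0.014 and 0.0993). The call was also lost without WT d6 replicate 2 (0.0574).

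The most abundant of these loci by counts had small changes. The 10 with the highest mean CPM had between 0 and 3 calls per comparison in each direction, and their log2 changes lay between -0.54 and 1.17 in the 4 comparisons of 2 groups. XLOC_005399 (chr11:48564902-48571795, 41542 bases from Rack1) was the highest, with 257, 640 and 320 CPM in WT d0 and 330, 369 and 381 CPM in WT d6. The Notch1-/- groups gave 369 to 597 CPM, within the range of WT d0. XLOC_010837 (chr14:113713828-113715945), 1163689 bases from the nearest known locus, had the largest genotype difference of the 10. It gave 138 to 226 CPM in the 6 WT libraries and 351 to 459 CPM in the 6 Notch1-/- libraries, with differences of 1.04 (SE 0.18, edgeR adjusted p = 0.00322) at d0 and 1.17 (SE 0.18, edgeR adjusted p = 0.000487) at d6.

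Among the loci linked to later annotated genes, 100 of 112 were tested. Of 54 tested lincRNA-linked loci, 22 fell and 5 rose in WT, and 26 fell and 5 rose in Notch1-/-. Over all tested loci, 24.7% fell and 18.4% rose in WT, and 18.7% and 17.2% in Notch1-/-. Of 24 protein-coding ones, 6 fell and 4 rose in WT, and 7 fell and 2 rose in Notch1-/-. The following were named after their values were seen. Platr6, one of the RNAs named for their association with pluripotency, gave 0.505, 0.631 and 0.439 CPM in WT d0, 0.00828 to 0.0256 CPM in WT d6, 0.615, 0.721 and 0.541 CPM in Notch1-/- d0 and 0.039 to 0.0745 CPM in Notch1-/- d6. It fell without overlap in both genotypes (edgeR adjusted p = 1.45e-05 and 6.51e-05), although it shares 59.3% of its exon length with another locus. The lincRNA AI838599 rose in both, from 0.724, 0.315 and 0.338 CPM to 17.8, 15.9 and 12 CPM in WT and from 0.169, 0.158 and 0.130 CPM to 1.76, 1.43 and 0.395 CPM in Notch1-/-. D330037F02Rik, a processed transcript, gave 1.84, 1.74 and 1.33 CPM in WT d6 and at most 0.102 CPM in every other library. The 5 loci with the most exons were linked to protein-coding genes. Ankrd31 had 26, Dnah7a, a dynein heavy chain, 23, Gm281 17, Gm15262 15 and C18orf63 14.

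The known locus nearest to a called locus was in some cases called the same way. Of the loci that rose in WT, 101 had a tested nearest known locus, which rose for 54 of them (53.5%) and fell for 12 (11.9%). A known locus nearest to several loci was counted for each of them, so these are not shares of separate known loci. The nearest known loci of loci that were not called rose in 27.2% of cases. For loci that fell in WT the same direction was seen for 152 of 428 (35.5%) against 22.1%, with 17.5% in the opposite direction, and in Notch1-/- for 119 of 383 (31.1%) against 19.2%. For loci lower in Notch1-/- at d6 it was 57 of 151 (37.7%) against 14.4%, whereas for loci higher in Notch1-/- at d6 it was 24 of 133 (18%) against 16.8%, with 13.5% in the opposite direction. At d0 it was 7 of 64 (10.9%) against 5.61% for loci higher in Notch1-/- and 16 of 97 (16.5%) against 6.21% for those lower.

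At the limit of the rule, XLOC_010412, XLOC_006781 and XLOC_033623 were just inside, with 10032, 10053 and 10100 bases to a known locus, and all 3 had lower CPM in every WT d6 library than in every WT d0 library. Just outside were XLOC_012879 and XLOC_012257, both at 9970 bases, and XLOC_017991 at 9922 bases. XLOC_012879 had 0 counts throughout and lies under XLOC_012257 on the other strand, and the other 2 also had lower CPM in every WT d6 library than in every WT d0 library. The farthest locus, XLOC_001213 (chr1:115785776-115860772), lies 1704792 bases from the nearest known locus and was linked to the lincRNA 9330185C12Rik. It gave 9.38, 12.6 and 15.2 CPM in WT d0, 7.78, 7.67 and 12.2 in WT d6, 19.6, 15.5 and 36.8 in Notch1-/- d0 and 16.2, 16.6 and 16.9 in Notch1-/- d6. All Notch1-/- libraries were above those of WT on the same day, but no comparison passed the threshold, with edgeR adjusted p of 0.07 and 0.0553 between genotypes.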

How the data were processed

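Poly(A) RNA libraries were sequenced as paired reads. TopHat2 2.0.8, Cufflinks 2.1.1, HTSeq 0.5.4p3, DESeq and build mm9 are named, without role or order, in the submitters' processing notes, while no strand setting is named there. The deposited tables hold unnormalised read counts and, scaled by the authors for length and depth, FPKM values for every merged locus, beside the transcript models. Libraries were grouped by the labels. Members and gene lists were chosen with earlier results of these data known. Loci were tested on the deposited counts with edgeR 4.0.16 (R 4.3.3): expression filter by group, TMM scaling, quasi-likelihood test over all 12 libraries and Benjamini-Hochberg adjustment over 23991 loci at 0.05. On simulated data for d6 against d0 in WT (22843 loci tested), 57% of 100 loci changed 2-fold and 100% of 100 changed 4-fold were recovered. The changed loci were drawn only from those above a floor of abundance, and every locus was given the same spread. These shares do not give the recovery for faint loci or for the spread between the real replicates.

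Loci were named by a rule: per comparison of 2 groups, the 5 largest changes in each direction among called loci with a mean of 1 CPM in the higher group and no overlap, the 3 largest interactions in each direction, the 10 most abundant, the 5 with most exons, those nearest the 10 kb limit, the 3 farthest, and the 3 most like each top riser. Not all of them are described. Gene names come from structure: 2 consecutive intron lengths and the exon between them had to match GENCODE M21. Alternatives were DESeq2 1.42.0, limma 3.58.1 on log2(FPKM + 0.1) and log2(FPKM + 1), other filters, scalings and distances, a replicate block, and leaving out each library. Same-numbered libraries deviated together in all 3 pairs between genotypes at d0 (r of 0.251 to 0.432), so the numbers were taken to pair those samples. The main fit used group means only, so the values given for genotype at d0 leave this pairing out. Replicates differed by far more than sampling noise (chi-square per degree of freedom of at least 42.0). No genome of build mm9 was used here.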

Additional observations from a re-analysis of the deposited data

Results flagged for a closer look

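The change from d0 to d6 differed between genotypes by the interaction term of edgeR's quasi-likelihood test in 75 loci in the positive direction and in 53 in the negative one. Among those named, the interaction was -11.46 for XLOC_000007, -6.92 for XLOC_031969, 4.26 for XLOC_036998 (Gm39458) and 3.75 for XLOC_034602. For XLOC_008457 (Gm17177) it was -7.24 (edgeR adjusted p = 0.00205), but WT d0 held 0 counts, so that this value depends on the prior count. For XLOC_029880 (Gm20618), which gave 0.454, 1.8 and 1.12 CPM in WT d0, 0.0248, 0.0508 and 0.145 in WT d6, 0.0893, 0.325 and 0.602 in Notch1-/- d0 and 0.198, 0.336 and 0.305 in Notch1-/- d6, it was 3.65 (edgeR adjusted p = 0.0361) and lost its call in 7 of the 12 fits with 1 library left out (0.0586 to 0.101).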

How the results depend on the processing

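Counts are given as higher and lower calls in the order WT d6 against d0, Notch1-/- d6 against d0, genotype at d0, genotype at d6 and interaction. Over all tested loci, both directions together, the main fit called 10342, 8613, 2294, 6741 and 2708. With at least 1 CPM in 3 libraries, which tests fewer loci, the counts were 44 and 180, 41 and 150, 29 and 48, 73 and 79, and 35 and 22. All tested loci then gave 6799, 5713, 1316, 4787 and 2259 calls. With loci over 50 kb from a known one, a smaller set, the counts were 53 and 229, 49 and 193, 32 and 43, 78 and 70, and 27 and 19. With limma on log2(FPKM + 1), lower calls were 337 in WT, 249 in Notch1-/- and 87 for the interaction, and higher calls 103 for genotype at d6. On log2(FPKM + 0.1), lower interaction calls were 87. With DESeq2, higher calls for genotype at d0 were 122 and lower interaction calls 99. All tested loci gave 3714 and 4099 calls there, both directions together. With limma on log2(FPKM + 1) all tested loci gave 9292, 6684, 1603, 5885 and 2839. On log2(FPKM + 0.1) they gave 3001 for the interaction. The cause of these shifts was not tested.

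Leaving out 1 library gave 117 to 150 higher and 405 to 594 lower in WT, 87 to 143 and 351 to 502 in Notch1-/-, 51 to 148 and 54 to 214 for genotype at d0, 107 to 224 and 128 to 222 for genotype at d6, and 35 to 110 and 29 to 69 for the interaction. Over all tested loci, both directions together, calls were 7923 to 11586, 6372 to 9990, 1124 to 5983, 4285 to 8002 and 1434 to 3943. The sign reversed for XLOC_000007 in Notch1-/- (0.10 and 0.01 with the smaller and larger FPKM pseudocount) and for the interaction of XLOC_012884 (0.23 on log2(FPKM + 1)). Of 176 calls of named loci, 29 and 51 lost the call on FPKM, and 1 with DESeq2.

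With the replicate block, calls were 145 and 538, 138 and 479, 115 and 145, 218 and 217, and 94 and 62, and 1 of 176 named calls changed. All tested loci gave 11014, 9395, 3335, 7666 and 3230 calls with it, both directions together. Beyond genotype at d0, the replicate numbers did not meet the rule for pairing: same-numbered r were 0.0428 to 0.219 in WT, -0.0576 to 0.181 in Notch1-/- and 0.0121 to 0.221 at d6. With upper quartile scaling, the share of all calls that were higher fell from 42.7% to 33.0% in WT and from 47.8% to 37.1% in Notch1-/-, with medians over all loci of -0.29 and -0.18, while it was 17.6% and 18.7% among these loci against 20% and 21.2%. Most of these loci are faint, and the depth limits what can be said of those under 0.1 CPM.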
